A study of Mus musculus with 11 samples.

Results

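The 9 marker genes of homeostatic microglia P2ry12, P2ry13, Gpr34, Cx3cr1, Csf1r, Tmem119, Siglech, Selplg and Olfml3 were examined in cortex of 5xFAD mice with and without Abi3. All 9 were found by symbol among the 53700 gene identifiers of the count files. Expression was measured by QuantSeq, which sequences the 3′ ends of polyadenylated RNA, in cerebral cortex of 11 female mice aged 8 months. Of these, 6 carried wildtype Abi3 (Abi3_WT) and 5 were Abi3 knockouts (Abi3_KO). The strain label was C57BL/6, and every animal in both groups carried the 5xFAD transgenes, human genes with familial Alzheimer's disease mutations under a neuronal promoter, so no animal was free of amyloid. The study's methods describe 5xFAD mice of B6SJL origin crossed with Abi3 nulls made on C57BL/6N, so the background was mixed. The Abi3 allele was a germline null, lost from all cells of the animal and not from microglia alone. Abi3 encodes a member of the Abelson interactor family, proteins that take part in actin remodelling.

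Microglia are the resident macrophages of the brain. In the resting, or homeostatic, state they survey the tissue with motile processes and express a set of surface receptors for nucleotides, lipids, chemokines and growth factors that other brain cells largely lack. Around amyloid plaques, microglia are known to enter a disease-associated state in which many of these receptors are less expressed and genes of phagocytosis and lysosomes are more expressed.

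The libraries held 3307854 to 5501958 reads in genes in Abi3_WT and 3202310 to 3933819 in Abi3_KO animals (difference in means, two-sided exact permutation test, p = 0.152). For every 100 reads in genes, 65.9 ± 3.67 (SD, n = 6) fell outside genes with Abi3 and 54.0 ± 4.99 (SD, n = 5) without it (two-sided exact permutation, p = 0.00649), and the values of the 9 genes with this share as a covariate are given last. Abi3 had 10 to 38 reads in the Abi3_WT animals and 0, 2, 0, 0 and 0 reads in the 5 Abi3_KO animals. Genes of microglia in any state, among them Aif1, Itgam and Cd68, were read in every animal, with a summed level of 2821 to 3970 normalized counts in Abi3_WT and 3315 to 4859 in Abi3_KO animals over 15 genes. The 7 genes of border-associated macrophages summed to 24.6 to 54.2 in Abi3_WT and 43.0 to 67.1 normalized counts in Abi3_KO animals. Neutrophil genes summed to at most 3.15 normalized counts, T cell genes to at most 9.37, and the 4 B cell genes had 0 reads. Hemoglobin genes, which mark blood, summed to 25.1 to 347 (median 208) in Abi3_WT and 7.91 to 388 (median 21.0) in Abi3_KO animals, with 1 Abi3_KO animal at the upper end and the other 4 at or below 46.5. All 4 hemoglobin genes had log2 fold changes below 0, and 0 passed the threshold or had an unadjusted p under 0.05 (DESeq2). Choroid plexus genes summed to 42.7 to 3486 (median 95.2) and 85.9 to 2296 (median 156). The part of blood and choroid plexus in the results was not tested.

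The genes lie on several chromosomes, and P2ry12 (3:59123682-59170429 in GRCm39, minus strand) and P2ry13 (3:59114539-59118304, minus strand) are neighbours. Promoter sequences, from 250 bases before to 50 bases after the RefSeq start site in GRCm38.p6, were at hand for 5 of the 9 genes, namely P2ry12, P2ry13, Cx3cr1, Siglech and Olfml3. They were searched on both strands for GAGGAA, which reads TTCCTC on the other strand, the core bound by PU.1, a factor of the myeloid lineage. The motif stood in 2 of the 5 promoters and in 28.3% of 27025 promoters of the table. The neighbours P2ry12 and P2ry13 are shown together with Siglech because these contrast a promoter without the motif with the 2 that hold it, in capitals, each read 5′ to 3′ on the strand of its gene. P2ry12 was read at chr3:59262936-59263235 (minus strand), P2ry13 at chr3:59210833-59211132 (minus strand) and Siglech at chr7:55767934-55768233 (plus strand).
P2ry12: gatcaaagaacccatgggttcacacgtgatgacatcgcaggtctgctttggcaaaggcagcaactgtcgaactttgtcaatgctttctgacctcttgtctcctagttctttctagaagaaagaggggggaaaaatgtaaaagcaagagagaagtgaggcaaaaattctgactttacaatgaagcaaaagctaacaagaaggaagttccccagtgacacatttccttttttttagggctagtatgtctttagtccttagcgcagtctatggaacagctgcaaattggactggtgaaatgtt
P2ry13: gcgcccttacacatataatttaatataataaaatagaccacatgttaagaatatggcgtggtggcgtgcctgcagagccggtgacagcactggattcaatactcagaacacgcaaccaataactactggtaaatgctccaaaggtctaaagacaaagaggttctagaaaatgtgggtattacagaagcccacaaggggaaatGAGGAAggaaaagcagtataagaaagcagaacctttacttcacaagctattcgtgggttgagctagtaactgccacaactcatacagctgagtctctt
Siglech: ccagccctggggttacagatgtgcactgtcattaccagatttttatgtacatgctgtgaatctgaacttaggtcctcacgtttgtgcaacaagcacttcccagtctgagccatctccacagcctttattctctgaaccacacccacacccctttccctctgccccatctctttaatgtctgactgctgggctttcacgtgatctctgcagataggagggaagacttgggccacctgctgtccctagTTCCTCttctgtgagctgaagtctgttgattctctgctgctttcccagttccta
In P2ry13 the match begins 48 bases before the start site, and in Siglech it begins 4 bases before it and runs across it. A match is a description of letters and not of a bound site.

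Whether loss of Abi3 changed the homeostatic genes was asked with DESeq2 over 17626 genes, with the p-value adjusted over the 6487 genes that passed the tool's own filter on mean count. Of the 9, 6 had an adjusted p. None of the 9 passed an adjusted p of 0.05, against 95 of 17626 genes (0.539%, of which 0.34% higher and 0.199% lower), and 0 of the 9 had an unadjusted p under 0.05, against 8.58% of all genes (4.14% higher). At this background a count of 0 among 9 does not set them apart from other genes. By edgeR 0 were called (0.193% of all genes) and 0 had an unadjusted p under 0.05 (9.71% of all genes). By limma 0 were called (0.139% of all genes) and 1, Gpr34, had an unadjusted p under 0.05 (10.1% of all genes). Log2 fold changes (Abi3_KO against Abi3_WT) were above 0 for 5 genes and below 0 for 4, with a median of 0.06, beside a median of -0.0033 over all genes tested. The groups overlapped for all 9 genes, while 1.04% of all genes tested had groups that did not overlap. In bulk cortex, fewer microglia and less RNA per microglial cell cannot be told apart.

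P2ry12 (ENSMUSG00000036353) encodes the ADP receptor that directs microglial processes toward released nucleotides. It had 70.7 (lowest), 117 (median) and 140.2 (highest) normalized counts in Abi3_WT animals, and 131, 123, 122, 99.4 and 109 in the 5 Abi3_KO animals in the order of their numbers. Every Abi3_KO value lay inside the Abi3_WT range. The means were 113 ± 26.9 (SD, n = 6) and 117 ± 12.6 (SD, n = 5), with a log2 fold change of 0.06 and a 95% interval of -0.30 to 0.41 (DESeq2, adjusted p = 0.937). The related ADP receptor P2ry13 (ENSMUSG00000036362) had 44.3, 56.6 and 85.5 (lowest, median, highest) in Abi3_WT and 31.5, 63.6, 64.5, 62.1 and 44.4 in Abi3_KO animals. One Abi3_KO animal was below all Abi3_WT animals, and 2 Abi3_WT animals were above all Abi3_KO animals. Its log2 fold change was -0.24 (95% interval -0.72 to 0.25, DESeq2, unadjusted p = 0.337), and DESeq2 gave it no adjusted p because its mean count was under the tool's filter of 70.4.

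Gpr34 (ENSMUSG00000040229; X:13489625-13507116, plus strand), a receptor for lysophosphatidylserine, had the smallest p of the 9. It had 59.4, 84.0 and 113 normalized counts (lowest, median, highest) in Abi3_WT and 78.7, 120.2, 95.5, 104 and 131 in Abi3_KO animals. Abi3_KO replicates 2 and 5 were above all Abi3_WT animals, 2 Abi3_WT animals were below all Abi3_KO animals, and the others were mixed. The means of 82.0 ± 20.4 (SD, n = 6) and 106 ± 20.5 (SD, n = 5) gave a log2 fold change of 0.38 (95% interval -0.02 to 0.77, DESeq2, unadjusted p = 0.0597, adjusted p = 0.446).

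**Figure D1:**
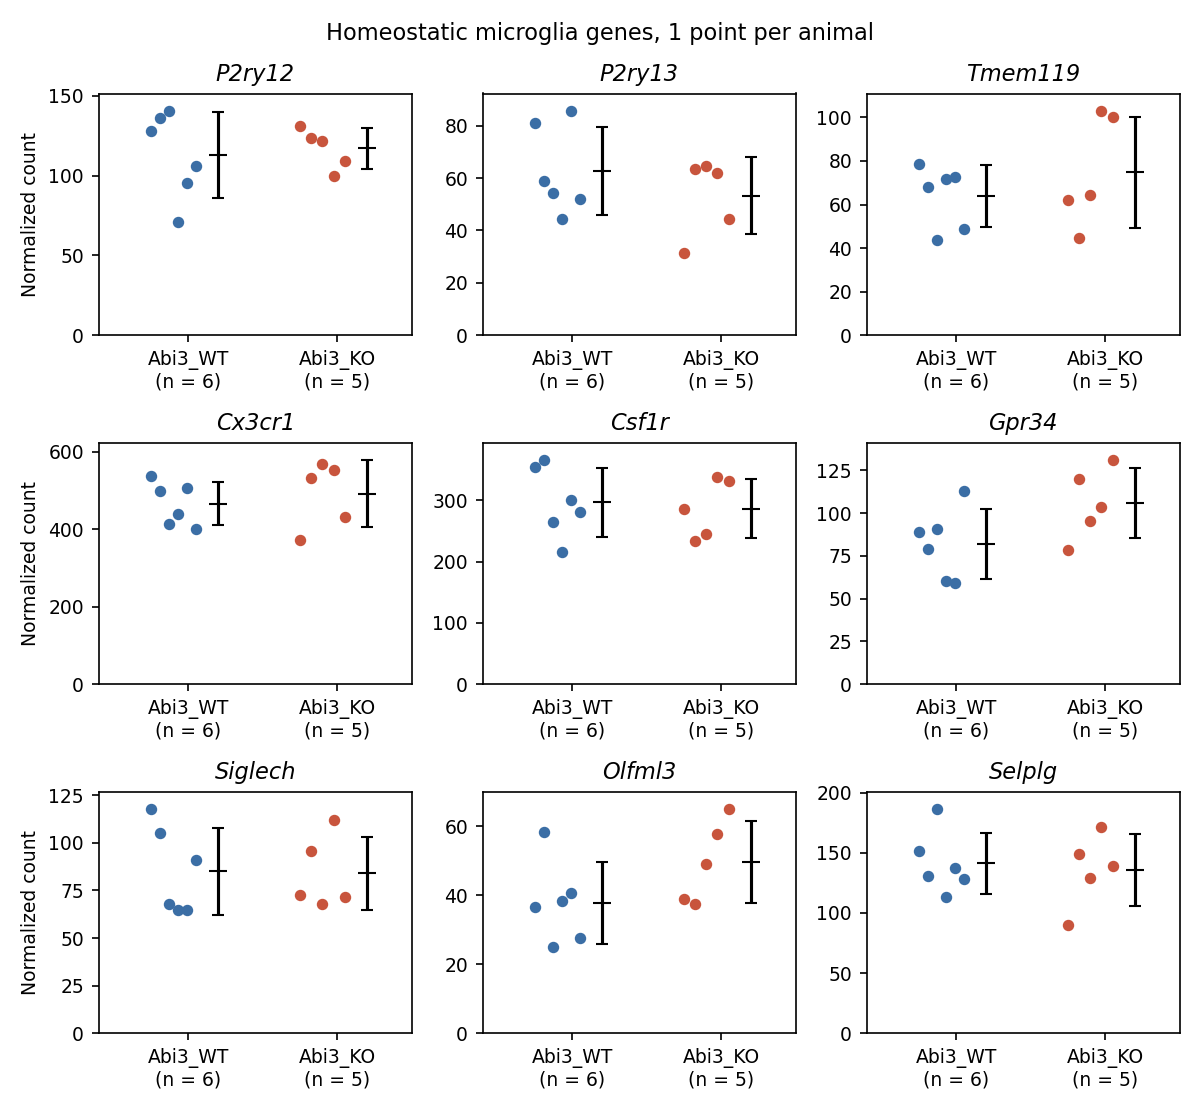
Normalized counts (y axes, from 0) of the 9 homeostatic genes, 1 point per animal, for 6 Abi3_WT and 5 Abi3_KO animals; the bars beside the points are the mean and 1 SD. The groups overlap in every panel, and the Abi3_KO values of P2ry12, Csf1r and Siglech lie within the Abi3_WT range.

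Cx3cr1 (ENSMUSG00000052336; 9:119877749-119898945, minus strand) is the receptor for the neuronal chemokine fractalkine. It had the most reads of the 9, with 401, 469 and 538 normalized counts (lowest, median, highest) in Abi3_WT and 373, 533, 569, 553 and 431 in Abi3_KO animals. One Abi3_KO animal fell below the Abi3_WT range and 2 lay above it. With means of 466 ± 55.5 (SD, n = 6) and 492 ± 85.5 (SD, n = 5) the log2 fold change was 0.08 (95% interval -0.15 to 0.30, DESeq2, adjusted p = 0.853), the narrowest interval of the 9, which spans 0.901-fold to 1.23-fold. Csf1r (ENSMUSG00000024621; 18:61229714-61266535, plus strand), the receptor through which Csf1 and Il34 keep microglia alive, had 216, 291 and 365 in Abi3_WT and 285, 233, 246, 338 and 331 in Abi3_KO animals. All Abi3_KO values of Csf1r lay inside the Abi3_WT range. Its log2 fold change was -0.05 (95% interval -0.33 to 0.22, DESeq2, adjusted p = 0.932).

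Tmem119 (ENSMUSG00000054675; 5:113931781-113938577, minus strand) encodes a membrane protein that separates microglia from most other macrophages. It had 43.9, 69.9 and 78.8 normalized counts (lowest, median, highest) in Abi3_WT and 61.9, 44.4, 64.5, 103 and 100.1 in Abi3_KO animals. Abi3_KO replicates 4 and 5 stood above all others, and the other 3 lay within the Abi3_WT range. The log2 fold change was 0.22 (95% interval -0.25 to 0.69, DESeq2, unadjusted p = 0.363, no adjusted p). Siglech (ENSMUSG00000051504; 7:55417926-55429195, plus strand), a sialic acid-binding lectin that signals through the adaptor encoded by Tyrobp, had 64.5, 79.5 and 118 in Abi3_WT and 72.4, 96.0, 68.0, 112 and 71.7 in Abi3_KO animals. Its Abi3_KO values lay inside the Abi3_WT range, and its log2 fold change was -0.02 (95% interval -0.43 to 0.40, DESeq2, adjusted p = 0.990). Selplg (ENSMUSG00000048163; 5:113956597-113970705, minus strand), the ligand of P-selectin, had 113, 134 and 186 in Abi3_WT and 90.2, 149, 129, 172 and 139 in Abi3_KO animals. One Abi3_KO animal was below the Abi3_WT range, and the log2 fold change was -0.05 (95% interval -0.39 to 0.28, DESeq2, adjusted p = 0.938).

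Olfml3 (ENSMUSG00000027848; 3:103629538-103645322, minus strand), a secreted matrix protein, had the fewest reads of the 9, with 24 to 87 raw reads per animal. It had 25.1, 37.4 and 58.2 normalized counts (lowest, median, highest) in Abi3_WT and 38.8, 37.4, 48.9, 57.6 and 64.9 in Abi3_KO animals. Of the Abi3_WT animals 3 were below all Abi3_KO animals, and 1 Abi3_KO animal was above all Abi3_WT animals. The log2 fold change was 0.37 (95% interval -0.15 to 0.90, DESeq2, unadjusted p = 0.166, no adjusted p), the widest interval of the 9, which spans 0.898-fold to 1.87-fold.

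**Figure D2:**
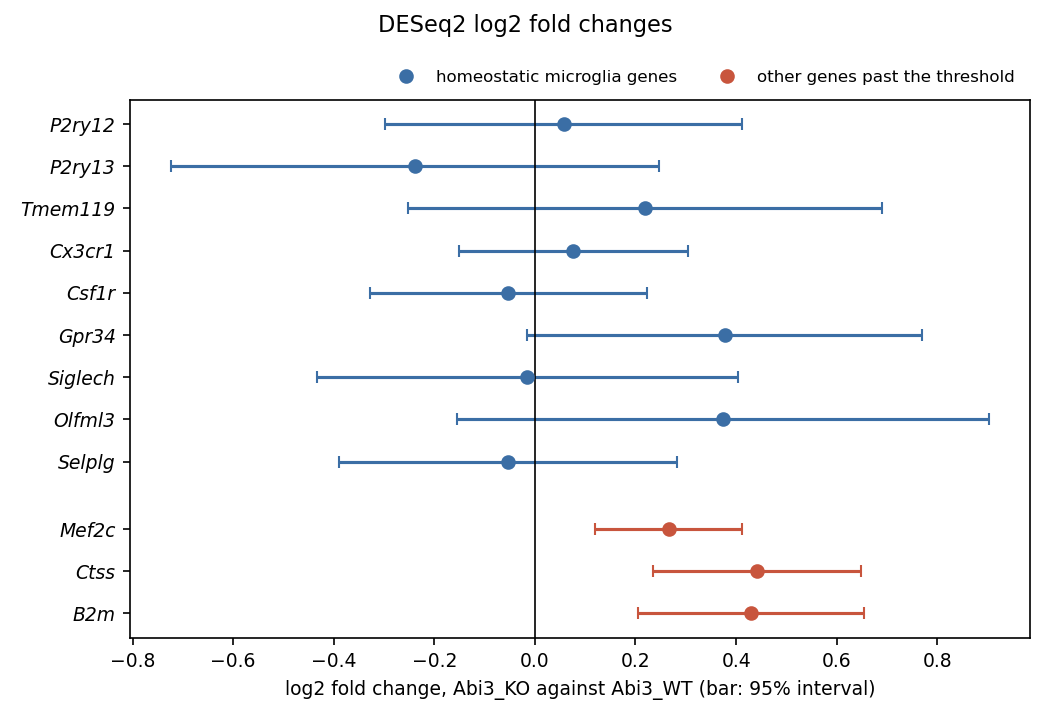
DESeq2 log2 fold changes of Abi3_KO against Abi3_WT (x axis) with 95% intervals for the 9 homeostatic genes and for Mef2c, Ctss and B2m, which passed the threshold. All 9 homeostatic intervals include 0, while those of Mef2c, Ctss and B2m lie above it.

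Several of the genes overlap another gene, and the counting used the strand. Med12l runs over the whole of P2ry12 and P2ry13 on the opposite strand, with a log2 fold change of -0.30 (DESeq2, adjusted p = 0.502). Cask overlaps Gpr34 on the opposite strand (-0.19, adjusted p = 0.520) and Hmgxb3 overlaps an end of Csf1r (-0.15, adjusted p = 0.836). Gm33858, opposite to Cx3cr1, had 2 reads in all, and Mir6983, inside Csf1r on its own strand, had 0. Gm65812, opposite to Olfml3, and Gm71766, opposite to Selplg, were not counted as genes of their own.

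The spread between animals was larger than counting error for each of the 9 genes. Among Abi3_WT animals the coefficient of variation ran from 11.9% for Cx3cr1, where counting alone gives 4.43%, to 31.2% for Olfml3, where counting gives 15.6%. Among Abi3_KO animals it ran from 10.7% for P2ry12, with a counting part of 9.72%, to 34.2% for Tmem119. Of 36 pairs of the 9 genes, 30 correlated positively over the 11 animals, with a median Pearson r of 0.225 on log2(normalized count + 1). The highest r was 0.789 for P2ry13 with Cx3cr1 (permutation test, p = 0.00296, adjusted p = 0.0869; Spearman's rho 0.782, p = 0.00641, adjusted p = 0.231). It was 0.757 without the 2 animals farthest from the median. Tmem119 and Olfml3 came next, with r = 0.784 (permutation test, p = 0.00483, adjusted p = 0.0869; Spearman's rho 0.636, p = 0.0406, adjusted p = 0.641) and 0.745 without the 2 farthest animals. No pair passed adjustment over the 36 pairs, and 3 had an unadjusted Pearson p under 0.05. Over 12893 genes, those among the 10 most like the mean z-score of the 9 genes over the 11 animals included Nceh1 (r = 0.888), Oxsr1 (0.886), Gpr62 (0.883), Dnajc3 (0.875), Fgl2 (0.857), P2rx7 (0.851), Disp3 (0.847), Hsp90b1 (0.839) and Cbl (0.838), given as a description of these animals. All values of an animal come from 1 library and share its depth.

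Other genes known from homeostatic microglia were then counted. Of 20 listed, 19 matched by symbol and were tested, and 0 passed (DESeq2; also 0 with edgeR and limma), 0 with an unadjusted p under 0.05, with a median log2 fold change of 0.0034. Those with the highest mean counts included Cst3, a cysteine protease inhibitor (0.0034), Sparc, a secreted matrix protein (-0.45, adjusted p = 0.482), and Mertk, a receptor for the uptake of dying cells (-0.06, adjusted p = 0.926). Cst3 and Sparc are also expressed by astrocytes and other brain cells.

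The partners of the receptors were next examined. Of 13 ligands, ligand-metabolising enzymes and adaptors, 12 were tested and 0 passed (DESeq2), and 1 had an unadjusted p under 0.05. This was Tyrobp, the adaptor of Siglech (log2 fold change 0.30, adjusted p = 0.423). Cx3cl1, the ligand of Cx3cr1, stood at 1549 ± 122 (SD, n = 6) with Abi3 and 1548 ± 183 (SD, n = 5) without it, in normalized counts, with a 95% log2 interval of -0.16 to 0.16. The ligands of Csf1r, chosen here after their values were seen, had log2 fold changes of -0.0014 (Csf1) and 0.06 (Il34), with 95% intervals of -0.45 to 0.45 and -0.17 to 0.29. Enpp2, which makes lysophosphatidic acid, had 0.23 (adjusted p = 0.758), and Abhd12, which degrades lysophosphatidylserine, the ligand of Gpr34, had 0.16 (adjusted p = 0.553). Of 12 other genes of purinergic signalling, 9 were tested and 0 passed, none with an unadjusted p under 0.05. Those with the highest mean counts were the adenosine receptors Adora1 (0.0077) and Adora2a (-0.30) and the ATP-gated channels P2rx4 (-0.13) and P2rx7 (0.23).

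Among transcription factors known from microglia, Mef2c was past the threshold. Mef2c, which neurons also express at high level, had 2277, 2439.6 and 3060.2 in Abi3_WT and 3360.1, 3057, 2766, 2948 and 3004 in Abi3_KO animals. One Abi3_WT animal stood among the Abi3_KO values, and Mef2c rose by a log2 fold change of 0.27 ± 0.0746 (SE; DESeq2, adjusted p = 0.0371). This call was lost with edgeR (adjusted p = 0.218) and limma (adjusted p = 0.119). In DESeq2 it was lost with TMM factors (adjusted p = 0.0526), with a filter of 10 counts in 5 animals (0.0563), without independent filtering (0.0893) and with reads outside genes as a covariate (1.00). That covariate differed between the groups, and with it Abi3 itself did not pass (DESeq2, adjusted p = 0.417). The Mef2c call was also lost without Abi3_WT replicate 1, 5 or 6 or Abi3_KO replicate 1, 2 or 5 (DESeq2, adjusted p = 0.0528 to 0.142). Neuronal genes had a median log2 fold change of 0.11, with 0 of 6 past the threshold. Of these 6, 2 had an unadjusted p under 0.05, both higher, against 4.14% of all genes tested. The part of neurons in the value of Mef2c was not tested.

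**Figure D3:**
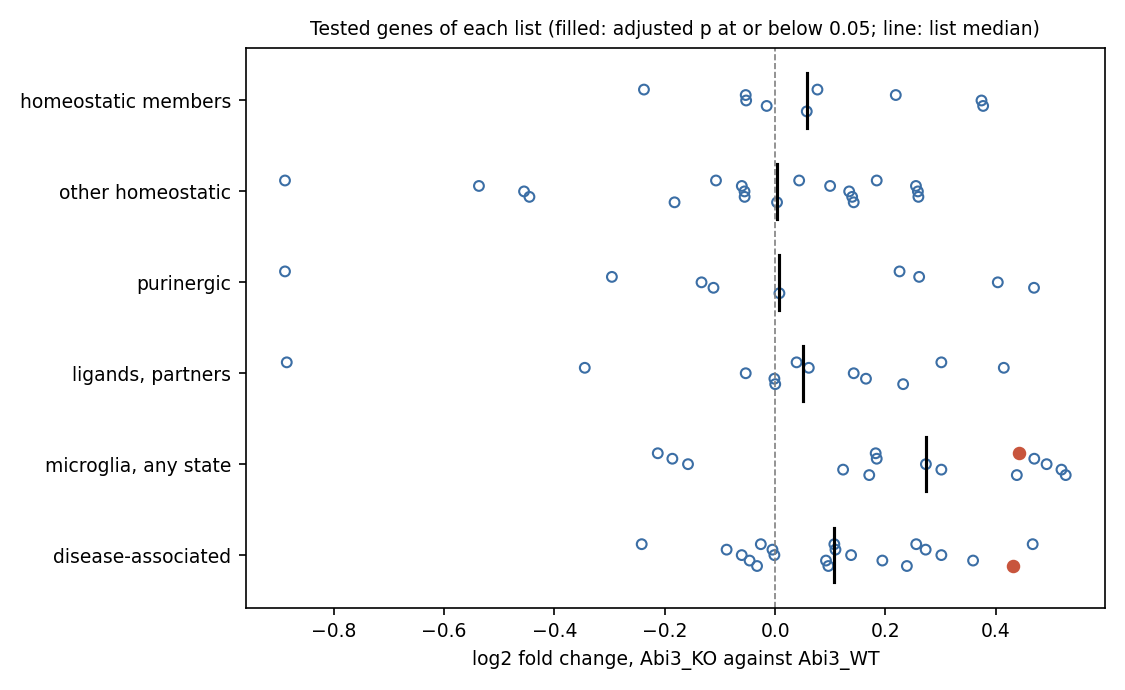
DESeq2 log2 fold changes of Abi3_KO against Abi3_WT (x axis) for each tested gene of 6 lists, 1 circle per gene, filled where the adjusted p was at or below 0.05, with a line at the median of each list. No homeostatic gene is filled, and the filled genes (Ctss and B2m) lie to the right of 0.

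Genes that microglia express in any state had a median log2 fold change of 0.27 over 15 genes. One rose by the adjusted p, against 0.34% of all genes tested called higher, and 6 had an unadjusted p under 0.05, all higher (Cd68, Laptm5, Ctss, C1qa, Fcer1g and Tyrobp), against 4.14% of all genes tested. Of the 15, 12 had log2 fold changes above 0 and 3 below, namely Ptprc (-0.19), Cd53 (-0.21) and Itgb2 (-0.16). Ctss, the lysosomal protease cathepsin S, had 832, 969 and 1309 normalized counts (lowest, median, highest) in Abi3_WT and 1118, 1379.7, 1288, 1585 and 1349.7 in Abi3_KO animals. Its groups overlapped through 1 Abi3_WT animal, and it rose with a log2 fold change of 0.44 ± 0.106 (SE; DESeq2, adjusted p = 0.00758), a call lost with edgeR (adjusted p = 0.0528) and with the covariate (DESeq2, adjusted p = 0.0962). With the covariate the log2 fold change of Ctss was 0.74. Of 21 genes of disease-associated microglia, 1 rose by the adjusted p (0.34% of all genes), 4 had an unadjusted p under 0.05 and were higher (4.14% of all genes), and the median was 0.11. Log2 fold changes were above 0 for 13 of the 21 and below 0 for 8, among these Apoe (-0.0049), Cst7 (-0.03), Lpl (-0.09) and Itgax (-0.24). The one that rose was B2m, the light chain of class I major histocompatibility molecules, which many cell types express. It had 496, 582 and 789.6 in Abi3_WT and 693, 943, 777, 739 and 974 in Abi3_KO animals, with a log2 fold change of 0.43 ± 0.115 (SE; DESeq2, adjusted p = 0.0234). The B2m call was lost with edgeR (adjusted p = 0.0934) and limma (adjusted p = 0.116), in DESeq2 without independent filtering (adjusted p = 0.0560) and with the covariate (1.00), and without Abi3_WT replicate 3, 5 or 6 or Abi3_KO replicate 2 or 5 (DESeq2, adjusted p = 0.0548 to 0.127). Several genes, among them Tyrobp, stood in more than 1 list, so the lists are not independent.

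Per animal, the 9 homeostatic genes together summed to 1349 ± 167 (SD, n = 6) with Abi3 and 1399 ± 156 (SD, n = 5) without it, in normalized counts, with ranges of 1119 to 1574 and 1163 to 1600.3 that overlapped. The 15 genes of microglia in any state summed to 3189 ± 429.98 (SD, n = 6) and 3998 ± 555 (SD, n = 5). Set against each other, per 100 reads of the general list there were 42.4 ± 2.72 (SD, n = 6) homeostatic reads with Abi3 and 35.1 ± 1.29 (SD, n = 5) without it. The ranges of this ratio, 38.9 to 45.6 and 32.9 to 36.2, did not overlap. The ratio was built after the fold changes were known, from genes of the same fit, and is given without a test. Without Ctss in the general list it was 61.4 and 52.9 and the groups overlapped, and without the 6 general genes at an unadjusted p under 0.05 it was 107 and 100.4, also with overlap. Without the 3 complement genes C1qa, C1qb and C1qc it was 53.1 and 43.7, and the groups did not overlap. For single genes the mean share of general reads in Abi3_KO over that in Abi3_WT ran from 0.676 for P2ry13 to 1.05 for Olfml3, with overlap between groups for all 9.

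**Figure D4:**
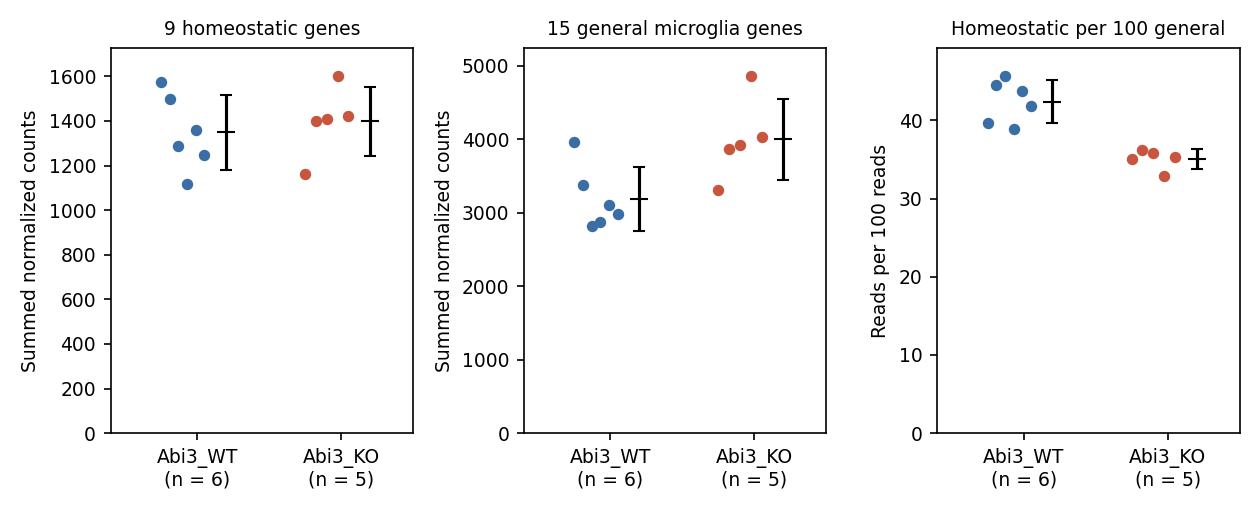
Summed normalized counts of the 9 homeostatic genes (left), of 15 genes of microglia in any state (middle) and homeostatic reads per 100 general reads (right), 1 point per animal with mean and 1 SD, for 6 Abi3_WT and 5 Abi3_KO animals. The homeostatic sums overlap, and the ratio is 38.9 to 45.6 in Abi3_WT and 32.9 to 36.2 in Abi3_KO animals.

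The count of 0 homeostatic genes past the threshold held in all 21 alternatives run, but the directions of the values nearest 0 did not. With 1 animal left out at a time, the log2 fold change ran from -0.046 to 0.13 for P2ry12, from -0.13 to 0.018 for Csf1r, from -0.14 to 0.094 for Siglech and from -0.15 to 0.066 for Selplg. Those of Gpr34 (0.29 to 0.49), Tmem119 (0.08 to 0.36), Olfml3 (0.26 to 0.55), Cx3cr1 (0.02 to 0.16) and P2ry13 (-0.32 to -0.10) kept their sign. With reads outside genes as a covariate, the values of P2ry12 (-0.34), Csf1r (0.15) and Siglech (0.45) turned in direction, those of Tmem119 (0.84), Cx3cr1 (0.25) and Olfml3 (0.67) moved further above 0, and those of Gpr34 (0.29), P2ry13 (-0.11) and Selplg (-0.099) kept their sign. In that fit 3 genes of the whole table passed the threshold. Abi3 itself had an adjusted p of 0.417 there (DESeq2), against 0.000706 without the covariate and with independent filtering off. The covariate differed between the groups, so it and genotype are hard to tell apart in that fit.

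**Figure D5:**
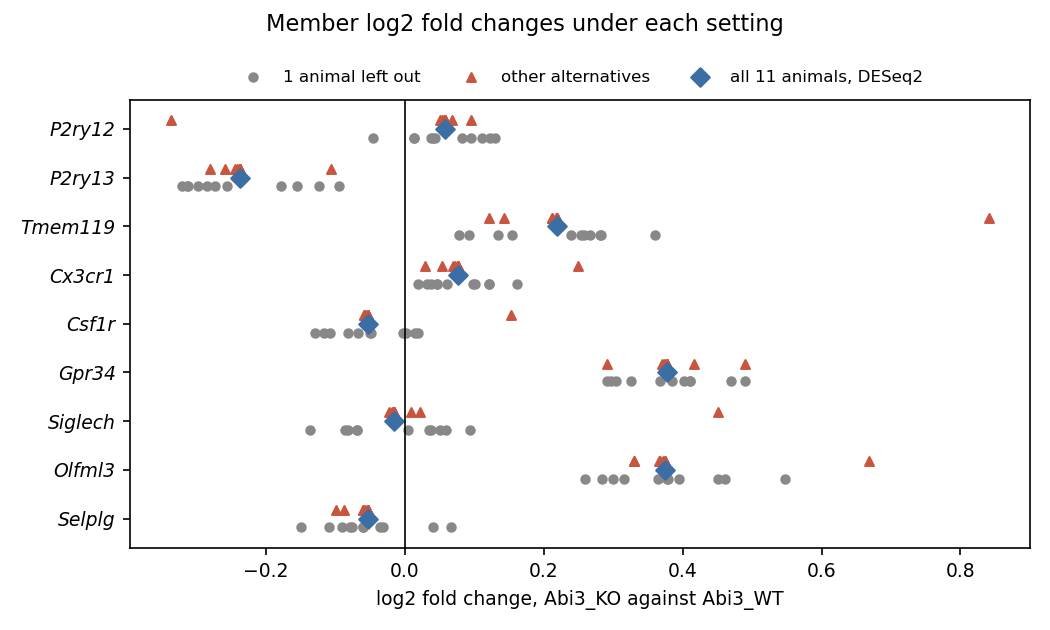
Log2 fold changes of Abi3_KO against Abi3_WT (x axis) of the 9 homeostatic genes under each setting: all 11 animals with DESeq2 (diamonds), 1 animal left out (circles) and other tools, filters and terms (triangles). P2ry12, Csf1r, Siglech and Selplg have points on both sides of 0.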

How the data were processed

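Cortical RNA of 11 animals was read by QuantSeq. The authors removed adapter and homopolymer ends, aligned reads to GRCm39 with STAR (version 2.7.3a) and deposited raw counts per Ensembl gene from stranded htseq-count (HTSeq, version 0.9.1, per the submitters' processing notes). Reads assigned to no gene were left out of library sizes and tests, and came to 49.8 to 68.8 per 100 reads in genes. PCR copies were not stated to be collapsed. Symbols and positions came from a more recent GENCODE annotation, which held 52610 of 53700 identifiers. At 3202310 to 5501958 reads in genes, 3 counts correspond to 0.545 to 0.937 CPM, covering counting error only.

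DESeq2 (version 1.42.0) in R (version 4.3.3) tested genotype, as in the study's methods, on genes with at least 10 counts in total and a mean normalized count of at least 1.5, with Benjamini-Hochberg adjustment, a threshold of 0.05 and independent filtering aimed at 0.05. Intervals are 95% Wald intervals of the log2 fold change. For library measures all 462 splits of the animals were enumerated in an exact permutation test (two-sided), and correlations by 100000 permutations. edgeR (version 4.0.16, quasi-likelihood), limma (version 3.58.1, voom), TMM factors, other filters, a covariate, a replicate block and leaving out each animal were alternatives. The settings for Mef2c, Ctss, B2m and Abi3, and for the ratio of homeostatic to general reads were added after seeing the data. The fits were tested on simulated data. No 2 libraries of the same genotype agreed within sampling noise; pairs across genotypes were not compared.

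The homeostatic genes, lists and tests were chosen with earlier results of these data known. Named were the 9 genes, Abi3, overlapping genes, per list the genes past the threshold or otherwise up to 4 of the highest mean, and the 10 genes most like the 9. Aif1, Itgam, Csf1, Il34 and the genes at an unadjusted p under 0.05 were named after their values were seen. So were Ptprc, Cd53, Itgb2, Apoe, Cst7, Lpl and Itgax. The list of border-associated macrophages and those of other cell types are given as summed levels. Some genes of the lists are not reported here by name. Mean counts served only to choose which genes to name and are not levels per length.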

Additional observations from a re-analysis of the deposited data

Results flagged for a closer look

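Among 38 groups of values examined, in which chance alone would flag about 1.9, 2 held a sample far from the others. Mef2c had 3060.2 normalized counts in Abi3_WT replicate 4, against 2533 in the nearest Abi3_WT animal. Abi3 had 2.02 normalized counts in Abi3_KO replicate 2, from 2 reads, against 0 in the other Abi3_KO animals, which is under the floor of 3 counts.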

How the results depend on the processing

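No homeostatic gene of either list passed the threshold in any of the 21 alternatives. The count over all genes, 95, was 25 with edgeR, 18 with limma, 57 without independent filtering, 153 at an adjusted p of 0.1, 3 with reads outside genes as a covariate, and 46 to 120 without 1 animal (61 without Abi3_WT replicate 1, 48 without Abi3_WT replicate 6, and 61, 46 and 47 without Abi3_KO replicates 1, 2 and 5). The split of 60 higher and 35 lower was 29 and 28 without independent filtering, 13 and 12 with edgeR, 10 and 8 with limma, and 43 and 33 with TMM factors. The 1 disease-associated gene became 0 with edgeR, limma, no independent filtering or the covariate, 2 at 0.1, and 0 to 2 without 1 animal. The 1 general gene became 0 with edgeR or the covariate, 2 at 0.1, and 1 to 2 without 1 animal. The median log2 fold change of the 9 genes, 0.06, was 0.25 with the covariate and -0.046 to 0.10 without 1 animal. Reversed values were those of Siglech (0.0083 with limma, 0.45 with the covariate), P2ry12 (-0.34 with the covariate) and Csf1r (0.15 with the covariate), and without 1 animal the values ran from -0.046 to 0.13 for P2ry12, -0.13 to 0.018 for Csf1r, -0.14 to 0.094 for Siglech and -0.15 to 0.066 for Selplg. The cause was not tested.

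The replicate numbers were not taken to pair animals: same-numbered animals correlated at -0.0048 to 0.0656, and 2 of 5 Abi3_KO animals correlated best with their own number. In a fit with a replicate block, 33 genes passed (28 shared with the 95), 0 of them homeostatic, the median of the 9 genes was 0.03, Mef2c lost its call (adjusted p = 0.0882), and Siglech reversed to 0.021.

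DESeq2 gave no adjusted p to 3 of the 9 genes (P2ry13, Tmem119 and Olfml3), which had 24 to 118 reads per animal, and these counts limit the precision of their values.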
